A study of Mus musculus with 12 samples.

Results

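The 36 genes described here encode cytokines, chemokines and parts of the NF-kB pathway, out of 37306 gene names on the array. They were taken by name: 10 interleukins and other cytokines, 8 CC chemokines, 6 CXC chemokines, 4 NF-kB subunits, 3 regulators of NF-kB, 2 adhesion molecules, 2 inflammasome genes and the prostaglandin synthase Ptgs2. Each was read from the probe of its name with the highest mean log2 signal over the 12 arrays. The scanner called 27 of the 36 well above background on all 12 arrays. Cxcl1 was above background on 11 arrays, Il6 on 9, Ccl11, Cxcl9 and Cxcl13 on 6 each, Ifng on 5, Il1a and Il10 on 1 each, and Cxcl2 on none. Il1a, Il10 and Cxcl2 were above background on all 3 arrays of no group and were not tested, which leaves 33 members.

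RNA came from dissected basal forebrain and cortex of mice aged 2 months. The DKO mice carried Cre driven by Chat, PS1flox/flox and PS2-/-. The Con mice carried no Cre, the same PS1flox/flox alleles and PS2+/-, so the controls also have floxed PS1 alleles and a single working PS2 copy. Cre under Chat acts in cholinergic cells, which are few in both tissues, whereas PS2 is lost in every cell of a DKO mouse. Each genotype had 3 mice, and each mouse gave both regions, so there are 4 groups of 3 arrays. PS1 and PS2 are the presenilins, the catalytic subunits of gamma-secretase.

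NF-kB is a family of paired transcription factors built from Nfkb1, Nfkb2, Rela, Relb and Rel. At rest they are held in the cytoplasm by inhibitors such as the product of Nfkbia, and signals from the receptors of interleukin-1, tumour necrosis factor or bacterial products release them to the nucleus. There they switch on cytokines, chemokines and adhesion molecules together with their own brakes, Nfkbia and Tnfaip3. Chemokines draw leukocytes: Cxcl1 and Cxcl2 recruit neutrophils, Ccl2, Ccl7 and Ccl12 monocytes, Cxcl9 and Cxcl10 activated T cells, and Cxcl13 B cells. In brain tissue many of these genes are expressed by microglia, astrocytes and the cells of blood vessels.

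Levels below are log2 intensities minus the 75th percentile of the array, so 0 is that percentile and 1 unit is a doubling. Psen2 checked the genotype labels: it stood between -1.86 and -1.25 on the 6 DKO arrays, against 0.25 to 0.50 on the 6 Con arrays. Of 8 basal forebrain markers 8 were higher in basal forebrain, and of 8 cortex markers 7 were lower there. All mice were labelled male, yet 4 arrays, both of DKO mouse 1 and both of DKO mouse 3, had Xist well above background, and the Y-linked Ddx3y, Eif2s3y and Uty were above background on the other 8 arrays only. Of the 2 slides, the first carried every basal forebrain array plus DKO cortex of mice 1 and 2, and slide 2 carried DKO cortex of mouse 3 with all Con cortex. The number of arrays limits the precision of every value. In tissue RNA, fewer cells of a type and less RNA per cell cannot be told apart.

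The promoters of 27 members were in a RefSeq table of the GRCm38.p6 build, and their 250 bases before the transcription start were searched for 2 motifs on both strands. The kappa-B consensus, the DNA motif that NF-kB binds, was found in 9 of those 27 genes (33.3%): Il6, Tgfb1, Cxcl1, Cxcl2, Cxcl10, Nfkb2, Nfkbia, Tnfaip3 and Nlrp3. Over all 27025 genes listed, 8.23% held it, and genes with several promoters had more chances to hold it. The core of the interferon-stimulated response element was found in Ccl19 and Cxcl10 of the members and in 3.46% of all genes. The windows of 5 members on which the results below turn are shown, with kappa-B and interferon-element matches in capitals. They are Bcl3 (chr7:19822756-19823005, minus strand), Cxcl1 (chr5:90890995-90891244, plus strand), Icam1 (chr9:21015690-21015939, plus strand), Nfkbia (chr12:55492648-55492897, minus strand) and Cxcl10 (chr5:92348890-92349139, minus strand).
Bcl3: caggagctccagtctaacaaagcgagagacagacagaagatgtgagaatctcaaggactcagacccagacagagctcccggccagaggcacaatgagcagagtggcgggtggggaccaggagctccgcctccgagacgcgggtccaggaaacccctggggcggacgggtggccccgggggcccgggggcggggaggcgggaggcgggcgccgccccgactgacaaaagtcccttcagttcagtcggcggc
Cxcl1: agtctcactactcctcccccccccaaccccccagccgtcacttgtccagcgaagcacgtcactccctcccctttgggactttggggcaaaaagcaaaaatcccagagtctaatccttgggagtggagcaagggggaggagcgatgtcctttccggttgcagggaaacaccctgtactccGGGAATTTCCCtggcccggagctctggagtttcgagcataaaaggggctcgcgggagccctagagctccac
Icam1: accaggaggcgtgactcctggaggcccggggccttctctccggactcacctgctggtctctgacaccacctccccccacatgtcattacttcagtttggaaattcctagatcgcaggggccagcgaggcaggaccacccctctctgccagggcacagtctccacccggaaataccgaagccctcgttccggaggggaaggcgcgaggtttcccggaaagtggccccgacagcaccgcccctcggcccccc
Nfkbia: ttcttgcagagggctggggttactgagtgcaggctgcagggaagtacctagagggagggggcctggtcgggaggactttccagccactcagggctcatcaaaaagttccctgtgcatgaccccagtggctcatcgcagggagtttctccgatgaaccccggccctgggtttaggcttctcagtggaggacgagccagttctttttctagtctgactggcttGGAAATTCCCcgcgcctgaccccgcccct
Cxcl10: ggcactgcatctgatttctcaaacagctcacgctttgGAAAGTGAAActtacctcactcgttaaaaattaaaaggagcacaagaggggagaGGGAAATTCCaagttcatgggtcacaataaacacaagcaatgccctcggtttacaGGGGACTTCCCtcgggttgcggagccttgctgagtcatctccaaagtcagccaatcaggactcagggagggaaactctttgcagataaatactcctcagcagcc
In Cxcl1 a kappa-B match on each strand overlaps the other, so the capitals form a single run 71 to 61 bases before the start. Nfkbia has a match 29 to 20 bases before its start, written here as it reads on the gene's strand. Cxcl10 has 3 kappa-B matches, 2 of them overlapping by all but 1 base, and the interferon element lies 213 to 204 bases before its start. The letters of neither motif occur in these windows of Bcl3 and Icam1. A match is a description of the letters and not of binding.

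Between DKO and Con mice, no member passed in basal forebrain, none passed in cortex, and Bcl3 alone (1 of 33, higher in DKO) passed when the 2 regions of each mouse were averaged. The test was limma with Benjamini-Hochberg adjustment over all genes, and the threshold was an adjusted p of 0.05. Of 26102 genes tested in basal forebrain 8 passed (0.0306%), of 25798 in cortex 3 passed (0.0116%), and of 26959 in the mean of both regions 42 passed (0.156%, and 0.141% higher in DKO). At an unadjusted p under 0.05 there were 5 of 33 members in basal forebrain (15.2%, against 4.39% of all genes), 6 of 28 in cortex (21.4%, against 18.9%) and 6 of 33 in the mean of both regions (18.2%, against 10.7%). The members had a median difference of -0.087 in basal forebrain, 0.028 in cortex and -0.13 in the mean, where all genes tested had 0.0039, -0.048 and -0.022. Their values spread from -2.13 to 0.99 in basal forebrain and from -0.79 to 1.97 in cortex. DKO and Con arrays did not overlap for 3 members higher in DKO (4.63% of all genes) and 1 lower (5.32%) in basal forebrain, and for 5 higher (8.86%) and 2 lower (13.5%) in cortex.

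**Figure D1:**
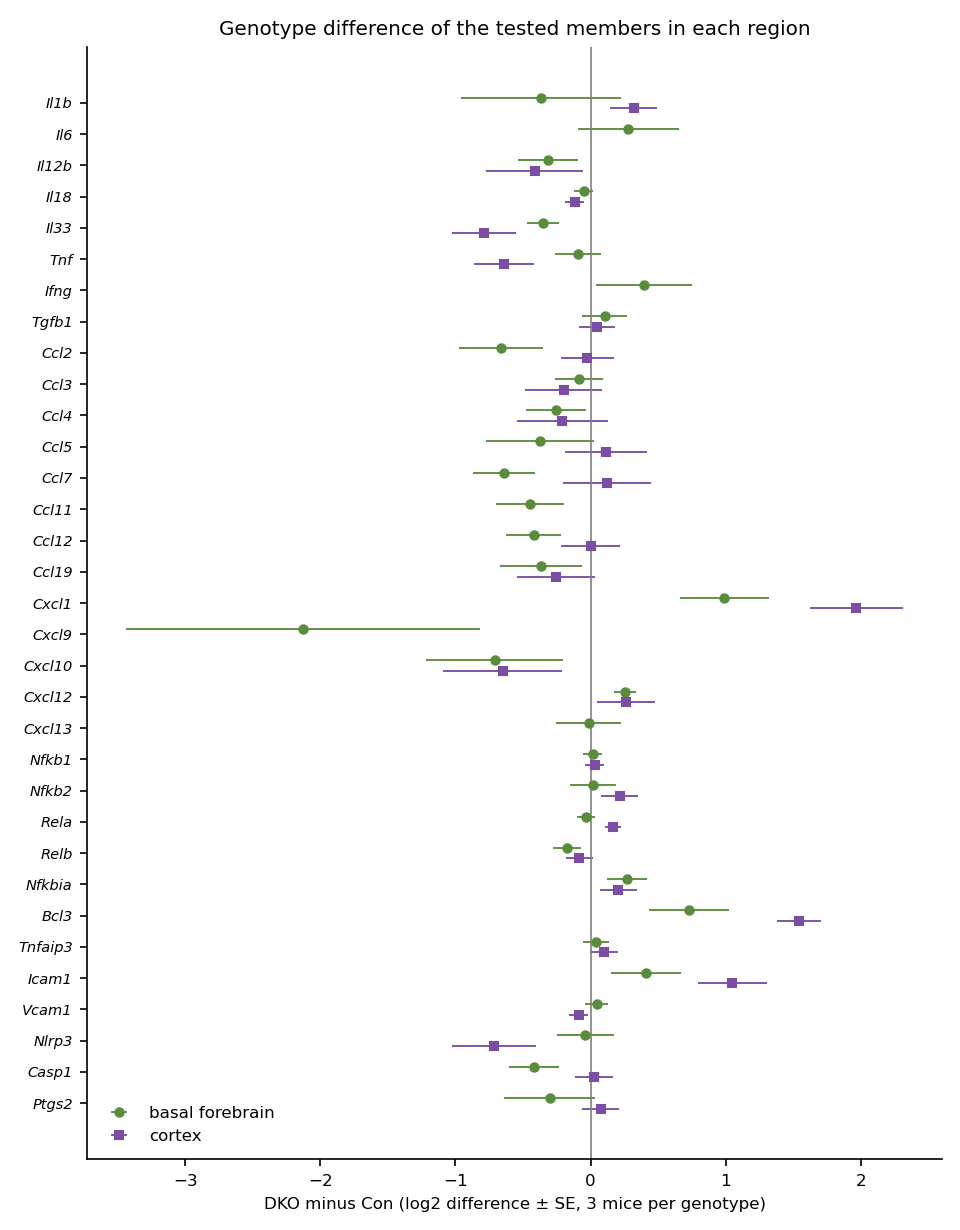
Log2 difference of DKO minus Con mice for the members tested, with its standard error, in basal forebrain (circles) and cortex (squares), 3 mice per genotype. Cxcl1, Bcl3 and Icam1 lie to the right of 0 in both regions, and Il33 and Cxcl10 are among those to the left in both. Cxcl9, tested in basal forebrain only, lies furthest left, with DKO mouse 1 not above background.

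Bcl3 encodes an atypical inhibitor protein that works in the nucleus, where it partners the p50 and p52 subunits and can activate or repress their targets. Its probe lies at chr7:20393826-20393885 of the mm9 build. In basal forebrain Bcl3 stood at -0.77, -2.03 and -1.41 in DKO mice 1, 2 and 3, against -2.08, -2.19 and -2.13 in Con mice. All 3 DKO values lie above the Con values, but that of DKO mouse 2 lies only just above them. In cortex the arrays read -1.39, -1.25 and -1.77 in DKO mice, against -2.99, -3.18 and -2.88 in Con mice. Here every DKO array is more than 1 unit above every Con array. The difference was 0.73 (SE 0.30) in basal forebrain and 1.54 (SE 0.17) in cortex, with limma adjusted p of 0.973 and 0.0787. Averaged over the 2 regions of each mouse it was 1.14 (SE 0.16, limma adjusted p = 0.0494), a 2.20-fold rise. It was seen in 3 of 3 DKO mice, in mouse 2 mainly through its cortex array. That call is at the edge: the adjusted p lay between 0.0509 and 0.492 in all 15 alternatives, from 0.0509 without DKO mouse 3 to 0.492 with the mean over both Bcl3 probes, the second of which was above background on no array.

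The cortex comparison spans both slides: slide 1 holds the cortex of DKO mice 1 and 2 and slide 2 that of DKO mouse 3 and all Con mice. Through its cortex arrays the mean of both regions shares this imbalance, and it had no alternative with slide as a block. Within slide 2, DKO mouse 3 was 1.24 above the mean of the 3 Con mice for Bcl3. Within slide 1, which holds all 6 basal forebrain arrays, the difference was the 0.73 above. Without DKO mice 1 and 3, the mice with Xist, DKO mouse 2 alone was 0.10 above Con in basal forebrain and 1.77 in cortex. That fit assumes that the lone mouse varies like the Con mice. In the same setting the basal forebrain differences were 0.70 for Cxcl1, -0.20 for Il33 and 0.27 for Cxcl12. In cortex they were 2.34 for Cxcl1, 1.46 for Icam1, -1.22 for Il33, -0.87 for Tnf and -0.29 for Cxcl12, where DKO mouse 2 was on slide 1 and the Con mice on slide 2, so that genotype and slide cannot be told apart.

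**Figure D2:**
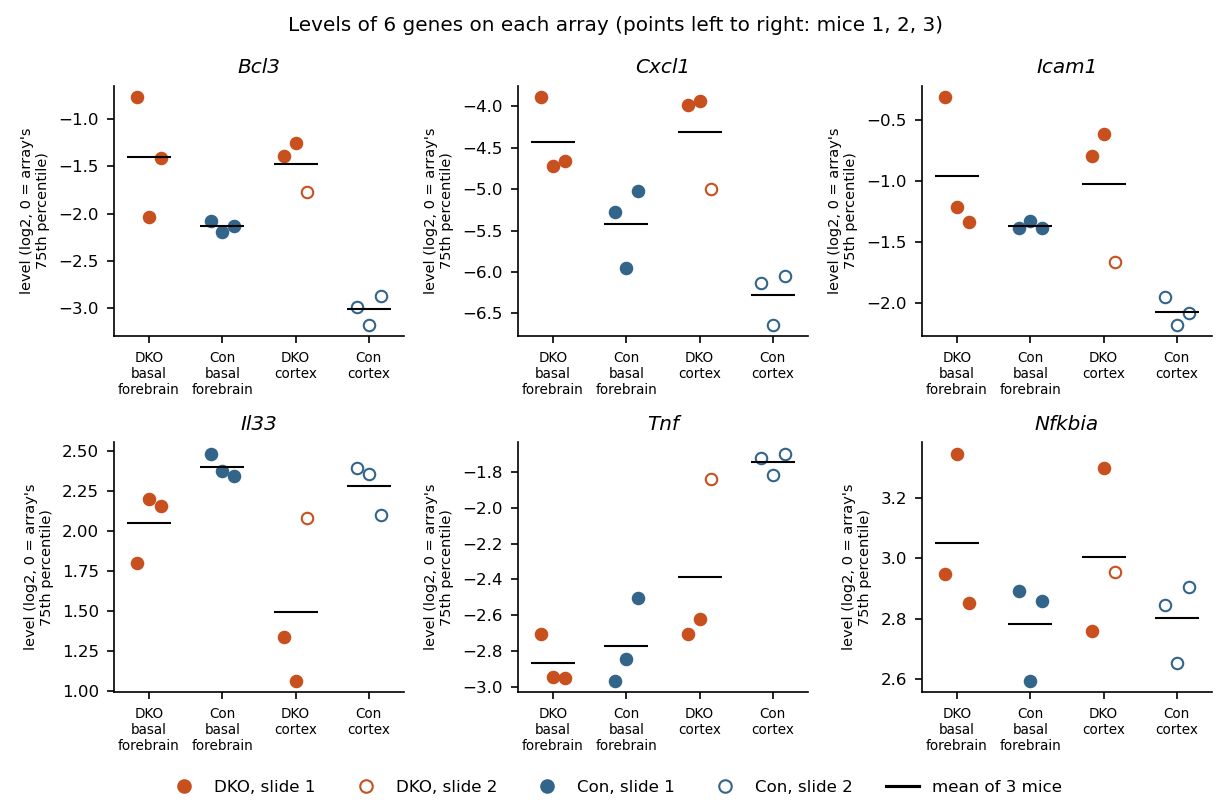
Level of 6 members on each array, in log2 units relative to the array's 75th percentile, with DKO left of Con in each region; filled points are slide 1, open points slide 2, lines are means of 3 mice. Bcl3, Cxcl1 and Icam1 are higher in every DKO cortex than in every Con cortex, and Il33 is lowest in the cortex of DKO mice 1 and 2. Tnf is lower in the cortex of DKO mice 1 and 2, on slide 1, than on every slide 2 array. In Con mice slide and region are the same split.

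On the probe of highest mean signal, the other regulators and the subunits of NF-kB showed small differences. Nfkbia, the classical inhibitor that NF-kB itself induces, stood at 2.95, 3.35 and 2.85 in DKO basal forebrain, against 2.89, 2.59 and 2.86 in Con. Cortex gave 2.76, 3.30 and 2.96 in DKO mice, against 2.85, 2.65 and 2.90 in Con mice. DKO mouse 2 has the highest value of each region, and the remaining values overlap. The differences were 0.27 (SE 0.15) and 0.20 (SE 0.14), with limma adjusted p of 0.973 and 0.394. Tnfaip3, which removes ubiquitin chains and ends NF-kB signalling, differed by 0.041 (SE 0.10) in basal forebrain and 0.097 (SE 0.10) in cortex.

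Nfkb1 encodes the precursor of p50. Its levels were 0.88, 1.02 and 1.01 in DKO basal forebrain, against 0.99, 0.97 and 0.91 in Con, and 0.55, 0.63 and 0.58 in DKO cortex, against 0.58, 0.55 and 0.53 in Con. The genotypes overlap in both regions, and the differences were 0.015 (SE 0.073) and 0.031 (SE 0.070). Rela encodes p65, the subunit that carries most of the activating function. Its levels were 3.03, 2.98 and 2.99 in DKO basal forebrain, against 3.08, 2.95 and 3.07 in Con, and 2.99, 3.03 and 2.97 in DKO cortex, against 2.86, 2.76 and 2.88 in Con. In cortex all DKO values are above all Con values, by a small step: the difference was 0.16 (SE 0.060, limma adjusted p = 0.261), against -0.034 (SE 0.065) in basal forebrain. Nfkb2 and Relb, the subunits of the alternative pathway, differed by 0.015 and -0.18 in basal forebrain and by 0.22 and -0.083 in cortex. No subunit passed. The sizes depended on the probe. Other probes, above background on all 12 arrays, differed in cortex by 0.080 and 0.41 for Nfkb1 and by 0.44 for Rela. They differed there by 0.030 for Nfkb2 and by 0.047 and -0.53 for Relb. In basal forebrain they ran from -0.26 for Relb to 0.24 for Nfkb1.

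Beside Bcl3, the largest positive differences in cortex were those of Cxcl1 and Icam1, both known as targets of NF-kB. Cxcl1, a ligand of the neutrophil receptor Cxcr2 (probe at chr5:91322080-91322139, mm9), stood at -3.89, -4.72 and -4.67 in DKO basal forebrain, against -5.28, -5.95 and -5.02 in Con. The cortex levels were -3.99, -3.93 and -4.99 in DKO mice, against -6.14, -6.63 and -6.05 in Con mice. The genotypes do not overlap in either region, and 1 Con cortex array is not above background. The difference was 0.99 (SE 0.33, limma adjusted p = 0.973) in basal forebrain, 1.97 (SE 0.35, limma adjusted p = 0.225) in cortex and 1.48 (SE 0.29, limma adjusted p = 0.200) in the mean of both regions.

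Icam1, the endothelial and leukocyte adhesion molecule that binds beta-2 integrins (probe at chr9:20833186-20833245, mm9), stood at -0.32, -1.21 and -1.34 in DKO basal forebrain, against -1.39, -1.33 and -1.38 in Con. DKO mouse 1 is well above the Con mice there, DKO mouse 2 just above them, and DKO mouse 3 among them. In cortex the arrays read -0.79, -0.61 and -1.66 in DKO mice, against -1.96, -2.18 and -2.09 in Con mice, with no overlap. The difference was 0.41 (SE 0.26, limma adjusted p = 0.973) in basal forebrain and 1.05 (SE 0.26, limma adjusted p = 0.261) in cortex. In the mean of both regions it was 0.73 (SE 0.21, limma adjusted p = 0.401), and 0.99 (limma adjusted p = 0.0337) without DKO mouse 3. The latter value compares DKO cortex arrays of slide 1 with Con cortex arrays of slide 2. In its cortex part genotype and slide cannot be told apart. A second Icam1 probe differed by 0.30 and 1.33. Vcam1, the integrin ligand that shares this role on endothelium, differed by 0.045 and -0.089, and its second probe by 0.30 and 0.69, with the opposite sign in cortex.

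Within slide 2, DKO mouse 3 exceeded the Con mean by 1.28 for Cxcl1 and by 0.41 for Icam1. Without DKO mouse 3 the cortex comparison set 2 DKO mice of slide 1 against 3 Con mice of slide 2, and genotype and slide cannot be told apart there. In that setting 9759 genes passed and 8 members: Bcl3, Cxcl1, Icam1, Rela, Il33, Tnf, Il12b and Nlrp3. With slide 2 alone 27 genes passed and 1 member, Cxcl12, higher by 0.70 in DKO mouse 3 (limma adjusted p = 0.0349, with that mouse assumed to vary like the Con mice). Cxcl12, the chemokine of Cxcr4 that blood vessels and meninges make, was at 3.14, 3.28 and 3.38 in DKO basal forebrain, against 2.94, 3.03 and 3.06 in Con. For cortex the levels were 3.16, 2.51 and 3.50 in DKO mice, against 2.77, 2.78 and 2.84 in Con mice, so the groups are apart in basal forebrain and overlap in cortex. It differed by 0.26 (SE 0.081) in basal forebrain and 0.26 (SE 0.22) in cortex, while its second probe differed by -0.29 and -0.091. In cortex the sign of Cxcl12 rests on the mice used: it was -0.29 (limma adjusted p = 0.0206) without DKO mice 1 and 3, opposite to the slide 2 value.

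RNA of blood cells moved with the genotype too. Lists of marker genes, chosen with results of these data known, were averaged on each array. The mean of 13 neutrophil markers lay between -1.96 and -1.14 in DKO basal forebrain, against -3.52 to -3.10 in Con, and between -1.68 and -0.73 in DKO cortex, against -3.48 to -2.83 in Con. Of those 13, 5 rose in the mean of both regions, where 0.141% of all genes rose. Positive differences were found for 12, led by S100a8 (3.50), Ltf (3.45), S100a9 (3.36) and Ngp (3.02). In cortex DKO mouse 2 had the highest neutrophil mean, then mouse 1, then mouse 3, which is also the order of Bcl3, Cxcl1 and Icam1 there. The red cell and blood monocyte means had that cortex order too, those of B cells and of T and NK cells did not, and DKO mouse 3 alone was on slide 2. In basal forebrain DKO mouse 1 was highest for the neutrophil mean and for all 3 genes. Mouse 2 and mouse 3 followed for the neutrophil and monocyte means and Icam1, but mouse 3 and mouse 2 for the red cell mean, Bcl3 and Cxcl1. The red cell mean (7 of 8 markers) was 2.82 to 4.75 on DKO arrays, against 1.55 to 1.98 on Con arrays, and all 7 rose in the mean of both regions, Slc4a1 by 2.38.

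B cell markers differed too. Their mean (9 markers) was -4.31 to -3.29 on DKO arrays, against -6.16 to -5.71 on Con arrays. In the mean of both regions 6 of 9 rose, where 0.141% of all genes did, Cd79b by 2.48. Among the 9 are Ms4a1 and Cxcr5, which were above background on no Con array. The Con means are therefore in part not levels, and the direction of these genes was set by how they entered. Ms4a1, which encodes CD20, entered the test only through DKO mice, so its fold is a bound. It was at least 12.01-fold higher in DKO. Here the mean of DKO arrays was set against the dimmest signal called well above background on each Con array. Of 6 blood monocyte markers 1 rose, Plac8, by 1.89. The endothelial mean was 0.99 to 1.31 on DKO arrays, against 0.60 to 0.88 on Con arrays, with 0 of 9 markers passing and Vwf at 1.42 (limma adjusted p = 0.0973). The T cell and NK cell list overlapped between genotypes in basal forebrain, from -3.45 to -2.91 in DKO and from -3.40 to -2.75 in Con. Microglia markers overlapped as well, from 1.93 to 2.13 in DKO basal forebrain against 2.01 to 2.08 in Con, and from 1.63 to 2.29 in DKO cortex against 2.24 to 2.25 in Con. Of the markers in the cell lists, Ncr1 alone was above background on no array. The part of any of these cells in the Bcl3, Cxcl1 and Icam1 values was not tested.

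**Figure D3:**
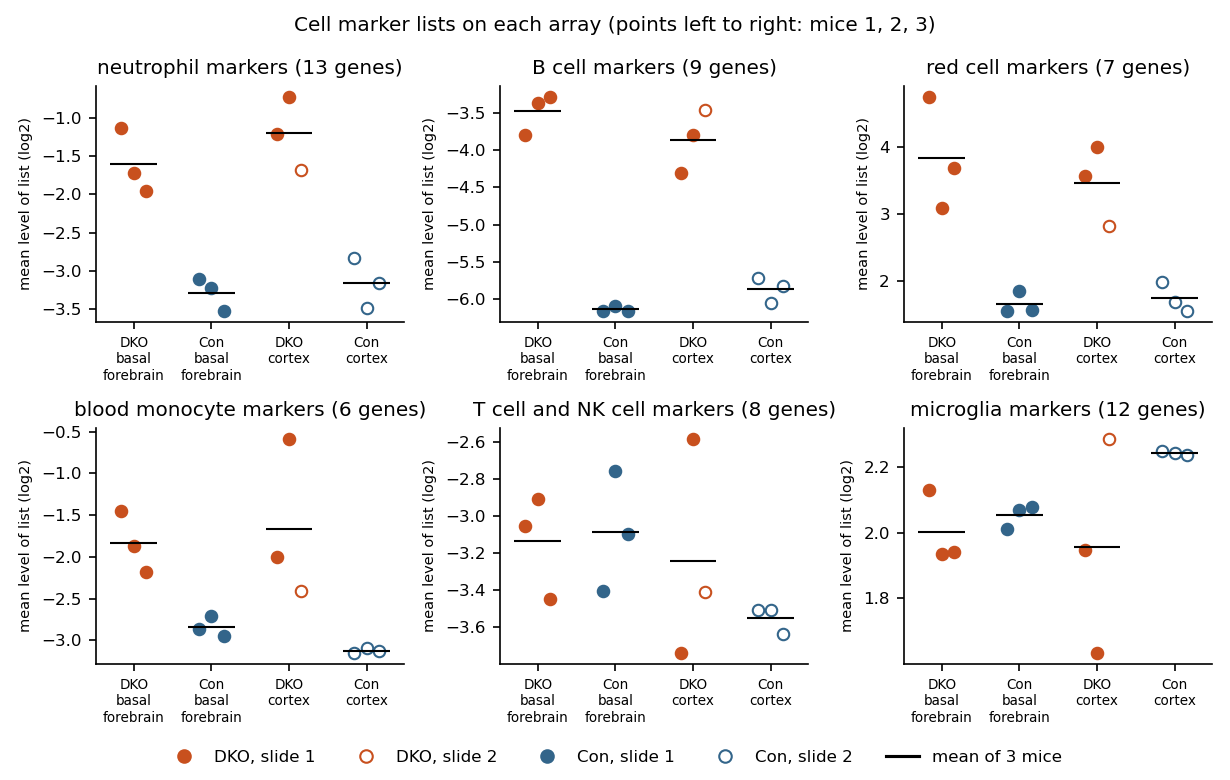
Mean log2 level of 6 marker lists on each array, DKO left of Con in each region; filled points are slide 1, open points slide 2, lines are means of 3 mice. Neutrophil, B cell, red cell and blood monocyte means are higher on every DKO array than on every Con array of the same region, and the T cell and microglia means overlap in basal forebrain. The B cell list includes Ms4a1 and Cxcr5, above background on no Con array.

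Among the 28 members tested in cortex, Il33 had the largest negative difference. It encodes a nuclear alarmin of astrocytes and oligodendrocytes that signals when cells are damaged (probe at chr19:30035101-30035160, mm9). Il33 was at 1.80, 2.20 and 2.16 in DKO basal forebrain, against 2.49, 2.38 and 2.34 in Con. Cortex gave 1.34, 1.06 and 2.08 in DKO mice, against 2.40, 2.36 and 2.10 in Con mice. The groups do not overlap in either region, although DKO mouse 3 is close to the lowest Con cortex value. The difference was -0.35 (SE 0.12, limma adjusted p = 0.973) in basal forebrain and -0.79 (SE 0.24, limma adjusted p = 0.261) in cortex. A second Il33 probe, above background on all 12 arrays, differed by only -0.025 in basal forebrain and by -0.44 in cortex. In the mean of both regions the difference on the first probe was -0.57 (SE 0.14, limma adjusted p = 0.360), and -0.74 (limma adjusted p = 0.0190) without DKO mouse 3. Without that mouse, the cortex arrays in this mean lay on slide 1 for DKO and on slide 2 for Con. In the cortex part of that value genotype and slide cannot be told apart. Within slide 2 DKO mouse 3 was at -0.20 relative to Con. The mean of 8 oligodendrocyte markers in DKO cortex was 3.43, 3.16 and 3.79 in mice 1, 2 and 3, the same order as Il33, against 3.61, 3.73 and 3.73 in Con. That order was not particular to oligodendrocytes: the microglia, mural cell and choroid plexus means had it too, and DKO mouse 3 alone was on slide 2. The astrocyte and endothelial means had it by very small steps, as for astrocytes in mice 1 and 2 (2.8666 and 2.8659). The part of these cells in the Il33 values was not tested.

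Tnf encodes the cytokine that is both a main inducer and a target of NF-kB. Its levels were -2.71, -2.94 and -2.95 in DKO basal forebrain, against -2.96, -2.85 and -2.51 in Con, with overlap. The cortex levels were -2.71, -2.62 and -1.84 in DKO mice, against -1.72, -1.82 and -1.70 in Con mice. The 2 low cortex arrays are those on slide 1, and all 8 arrays of slide 1 lie below the 4 arrays of slide 2. The other slide 1 arrays are basal forebrain, and in Con mice slide and region are the same split. The cortex difference was -0.64 (SE 0.22, limma adjusted p = 0.261), and within slide 2 it was -0.091.

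Il1b, the fever cytokine that the inflammasome cuts into its active form, stood at -4.44, -6.21 and -5.75 in DKO basal forebrain, against -5.27, -5.94 and -4.10 in Con. The spread within each genotype exceeds the difference of -0.37 (SE 0.59). In cortex the arrays read -3.23, -3.48 and -3.46 in DKO mice, against -3.64, -3.52 and -3.96 in Con mice, with no overlap and a difference of 0.32 (SE 0.17, limma adjusted p = 0.321). Of the remaining cytokines, Il12b differed by -0.32 in basal forebrain and -0.41 in cortex, Il18 by -0.051 and -0.12, and Tgfb1 by 0.10 and 0.048. Il6 (0.28, SE 0.37) and Ifng (0.40, SE 0.35) were tested in basal forebrain, where they were above background on 6 and 5 of 6 arrays. No cytokine passed in any genotype comparison.

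Among the CC chemokines all 8 had negative differences in DKO basal forebrain, where 48.9% of all genes did, and none passed. Their median was -0.40, from -0.66 for Ccl2 to -0.087 for Ccl3. Ccl7, a ligand of the monocyte receptor Ccr2, had the smallest p: it stood at -3.92, -3.23 and -3.72 in DKO mice, against -3.25, -2.94 and -2.77 in Con mice. DKO mouse 2 overlaps Con mouse 1, and the difference was -0.64 (SE 0.23, limma adjusted p = 0.973). Without DKO mice 1 and 3 it was -0.25. In cortex the 7 tested CC chemokines had a median of -0.023, with 4 negative and 3 positive, and Ccl7 differed by 0.12 (SE 0.32). Ccl11 was not above background in cortex and was not tested there.

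Cxcl9 and Cxcl10 attract T cells and are classical products of interferon gamma. Cxcl9 stood at -8.09, -3.27 and -6.11 in DKO basal forebrain, against -5.34, -1.93 and -3.81 in Con. Mouse 2 is the highest and mouse 1 the lowest of each genotype. DKO mouse 1 was not above background, so the fitted difference of -2.13 (SE 1.31, limma adjusted p = 0.973) rests in part on a value that is not a level. Cxcl10 stood at -2.82, -1.43 and -2.30 in DKO basal forebrain, against -2.32, -0.54 and -1.56 in Con, and at -4.17, -3.58 and -4.30 in DKO cortex, against -4.23, -2.38 and -3.48 in Con. The order of the mice within a genotype in basal forebrain is that of Cxcl9, and the differences were -0.71 (SE 0.51) and -0.65 (SE 0.44).

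Ccl5, a chemokine of T cells and monocytes that was picked out after its values were seen, stood at -1.92, -1.18 and -2.13 in DKO basal forebrain, against -2.13, -0.66 and -1.31 in Con. Cortex gave -2.63, -2.17 and -2.93 in DKO mice, against -2.95, -2.05 and -3.07 in Con mice. Mouse 2 of each genotype was again highest in both regions. The T cell and NK cell mean in basal forebrain was -3.05, -2.91 and -3.45 in DKO mice, against -3.40, -2.75 and -3.09 in Con mice, the same order of mice as Ccl5. In cortex that mean was nearly level in Con mice 1 and 2 (-3.508, -3.505 and -3.637 in mice 1, 2 and 3). In DKO cortex it did not have the order of Ccl5 (-3.74, -2.58 and -3.41). The part of T and NK cells in these values was not tested. The replicate numbers name different mice in the 2 genotypes.

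**Figure D4:**
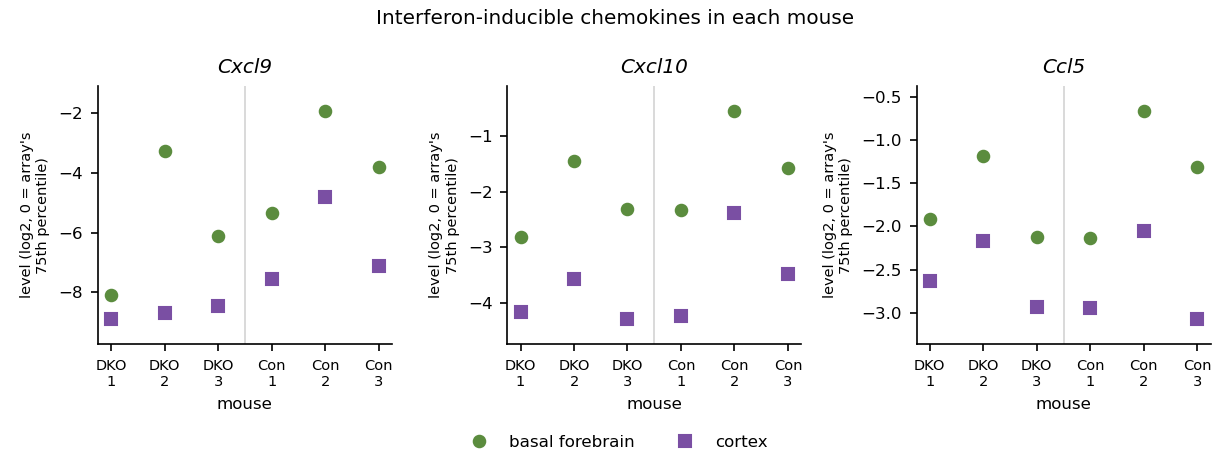
Log2 level of Cxcl9, Cxcl10 and Ccl5 in each mouse, DKO mice left and Con mice right, in basal forebrain (circles) and cortex (squares). In basal forebrain mouse 2 of each genotype is the highest for all 3 genes, and each circle lies above the square of the same mouse.

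The inflammasome sensor Nlrp3 differed by -0.040 (SE 0.21) in basal forebrain and -0.71 (SE 0.31) in cortex, where within slide 2 it was at -0.22. Casp1, the protease that matures Il1b and Il18, differed by -0.42 (SE 0.19) and 0.024 (SE 0.14). Ptgs2, the inducible prostaglandin synthase, differed by -0.30 (SE 0.34) and 0.075 (SE 0.14). None of these passed.

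Whether the genotype difference varied by region was tested as an interaction, that is, the basal forebrain difference less the cortex difference. No gene of 26959 passed in limma (0%), and at an unadjusted p under 0.05 there were 2 members, Rela and Bcl3, where 8.36% of all genes were. Bcl3 differed by -0.81 (SE 0.36) and Rela by -0.20 (SE 0.086), both with a limma adjusted p of 0.562, so a larger difference in cortex than in basal forebrain was not shown for either.

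Receptors and further NF-kB genes were read from lists of partners. Of 15 chemokine receptors 10 were tested in basal forebrain, and 1 passed: Cxcr5, the receptor of Cxcl13 on B cells. It entered only through DKO mice, with no Con array above background. By the same bound as Ms4a1 it was at least 2.40-fold higher in DKO. In the mean of both regions it was at least 1.90-fold higher, where 11 receptors were tested and 1 passed. None passed in cortex. Cxcr5 is also on the B cell list above. Of 20 cytokine receptors 17 were tested and 0 passed in each genotype comparison; the smallest p in the mean of both regions belonged to Il6ra at 0.50 (SE 0.15) and Il1r1 at 0.52 (SE 0.16). Of 18 genes of NF-kB signalling and feedback 15 were positive in cortex, where 41.5% of all genes were, and 0 passed. The smallest p there were those of Nfkbiz (0.63, SE 0.16), an inducible nuclear partner of NF-kB, and Birc3 (0.76, SE 0.24), an inhibitor of cell death that NF-kB induces, both with a limma adjusted p of 0.261. In basal forebrain 7 of the 18 were positive, with Map3k7 at -0.36 and Nfkbiz at 0.29. Of 12 inflammasome and adhesion partners 11 were tested and 0 passed, and Casp4 (0.44) and Selp (0.53) had the smallest p in the mean.

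The 2 regions differed far more than the genotypes. Over all 12 arrays 21 of 33 members passed between basal forebrain and cortex, 63.6%, close to the 60.4% of all genes that did. Of the members 16 were higher in basal forebrain (25.7% of all genes) and 5 lower (34.7% of all genes). Among the 16, Cxcl13, Ifng, Ccl11 and Cxcl9 entered the test only through basal forebrain, where they are high. Cxcl9 was above background on 1 cortex array and the others on no cortex array. The median difference of the 33 tested members was 0.32, where that of all genes was -0.071. Of the chemokines, 6 of 8 CC and 3 of 5 tested CXC were higher in basal forebrain, where 25.7% of all genes were. These counts include Ccl11, Cxcl13 and Cxcl9, whose direction was set by how they entered the test. Cxcl10, Ccl5, Ccl19 and Ccl12 did not pass with slide as a block.

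Cxcl13, which guides B cells, was read in basal forebrain at -5.55, -5.14 and -5.17 in DKO mice and at -5.66, -5.00 and -5.15 in Con mice, against -8.90, -8.63 and -8.42 in DKO and -8.62, -7.41 and -7.32 in Con cortex. It was above background on all basal forebrain arrays and on no cortex array. The fold is therefore a bound: at least 2.12-fold higher in basal forebrain. The bound is made as for Ms4a1. Ifng, the cytokine of T cells and NK cells, was read in basal forebrain at -5.91, -6.01 and -5.57 in DKO mice and at -7.00, -5.92 and -5.77 in Con mice, against -8.89, -8.67 and -8.46 in DKO and -6.98, -7.79 and -8.53 in Con cortex. It was at least 1.26-fold higher in basal forebrain, with Con mouse 1 not above background in either region. Ccl11, the eosinophil chemokine, was at least 1.62-fold higher by the same measure. Cxcl13, Ifng and Ccl11 passed, but their p values rest on cortex readings not above background and are not given. With normexp background correction neither Ifng (0.11, limma adjusted p = 0.182) nor Ccl11 (0.10, limma adjusted p = 0.199) passed.

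Ccl7, at the basal forebrain levels given above, was set against -4.67, -5.22 and -5.46 in DKO and -5.78, -4.88 and -5.07 in Con cortex. All basal forebrain arrays are above all cortex arrays, and the difference was 1.87 (SE 0.20, limma adjusted p = 1.19e-05). Cxcl10, at the levels given above, was higher by 1.86 (SE 0.37, limma adjusted p = 0.00104) and by at least 1.35 in each of the 6 mice. Cxcl9 in cortex was at -8.89, -8.68 and -8.46 in DKO mice, against -7.57, -4.82 and -7.13 in Con mice, of which Con mouse 2 alone was above background. The fitted difference was 2.83. Cxcl9 passed, but its p value rests on cortex readings not above background and is not given. With 5 of 6 cortex arrays not above background, the fitted size is not a measured difference of levels. In DKO mouse 1 neither region was above background. Ccl2, the main monocyte chemokine, was higher by 1.48 (SE 0.19), Ccl5 by 1.08, Ccl19, a ligand of Ccr7, by 1.00 and Ccl12 by 0.67. Ccl3 (-0.0051) and Ccl4 (0.11), which microglia make, did not pass.

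Members lower in basal forebrain were Il1b, Ptgs2, Tnf, Casp1 and Tnfaip3. Il1b, at the levels given above, was lower in all 6 mice, with a difference of -1.74 (SE 0.33, limma adjusted p = 0.000840) and no overlap of the regions. Ptgs2, which cortical neurons express, differed by -1.57 (SE 0.19, limma adjusted p = 3.15e-05), and was lower in all 6 mice. Casp1 differed by -0.37 and Tnfaip3 by -0.32. Tnf differed by -0.75 (SE 0.15) over all mice, but by -0.0008 and -0.32 in DKO mice 1 and 2, whose 2 arrays share slide 1, and by -1.24 to -0.81 in the other 4 mice.

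Of the NF-kB subunits Nfkb1 was higher in basal forebrain by 0.39 (SE 0.048, limma adjusted p = 2.87e-05) and by 0.33 to 0.43 in every mouse, and its other probes differed by 1.37 and 0.71. Nfkb2 was higher by 0.32 (limma adjusted p = 0.0234), and Rela (0.10) and Relb (-0.10) did not pass. Bcl3 was higher by 0.47 (SE 0.18, limma adjusted p = 0.0365) and passed in 4 of 16 alternatives. Its values within mice were 0.63, -0.78 and 0.36 in DKO mice 1, 2 and 3, against 0.91, 0.98 and 0.74 in Con mice. Of the rest, Il18 (0.21), Vcam1 (0.20) and Tgfb1 (0.26) were higher, Tgfb1 with a limma adjusted p of 0.0488 that passed in 4 of 16 alternatives. Nfkbia differed by 0.013, and Icam1 (0.39), Il33 (0.34), Cxcl1 (0.37), Cxcl12, Il6, Il12b and Nlrp3 did not pass.

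**Figure D5:**
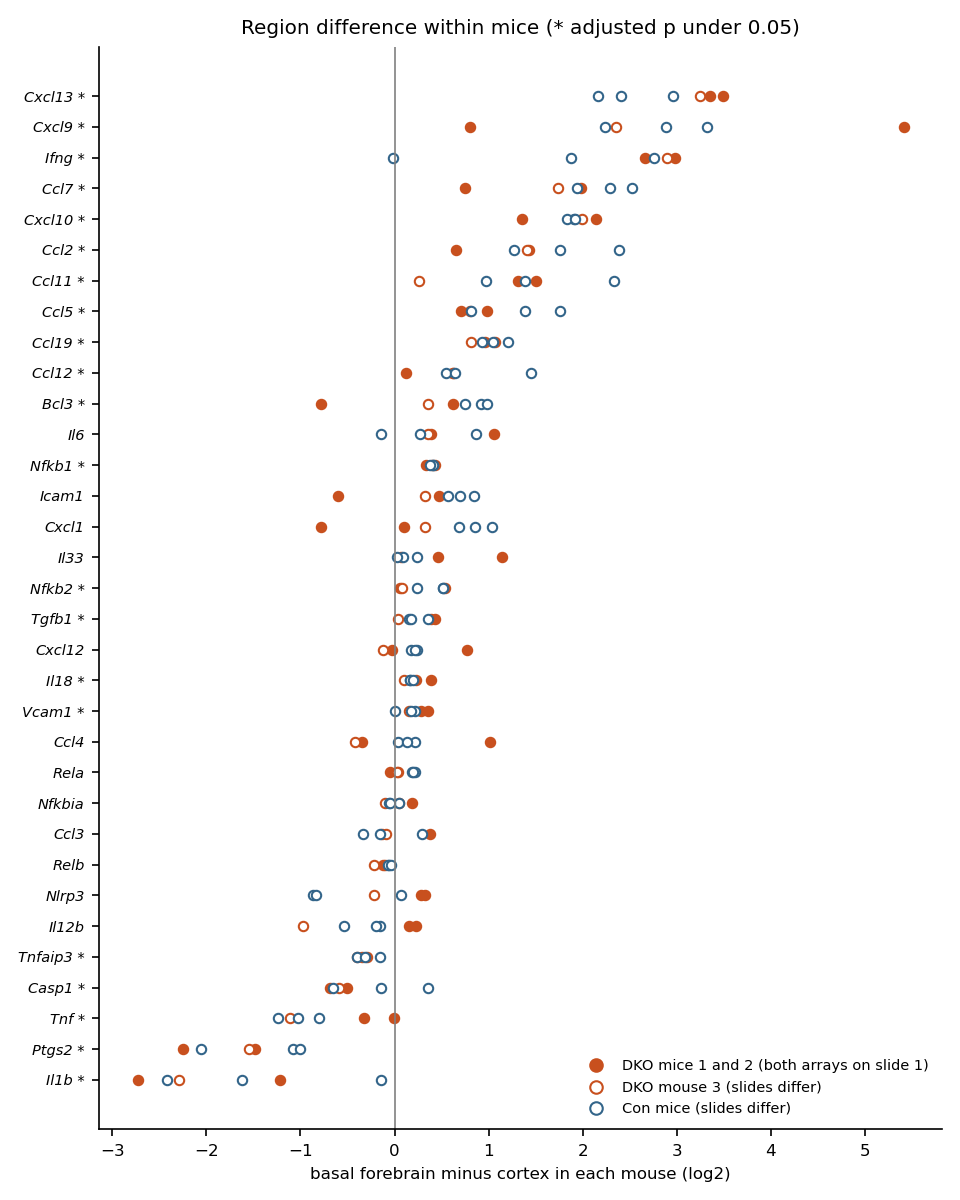
Log2 difference of basal forebrain minus cortex within each of 6 mice for the 33 tested members, in order of the mean difference; filled points are DKO mice 1 and 2, whose 2 arrays share a slide, and stars mark an adjusted p under 0.05. Chemokines and Ifng lie at the top, to the right of 0, and Il1b, Ptgs2 and Tnf at the bottom, to the left; Cxcl13, Ifng and Ccl11 were above background on no cortex array and Cxcl9 on 1, so their points show direction and not size.

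Slide and region are partly the same split, since slide 2 held cortex only. With slide as a block 7318 of all genes passed and 11 members: Cxcl13, Ifng and Ccl11, whose sizes have only the bounds above, and Ccl7 (1.53), Ccl2 (1.25), Il33 (0.93), Cxcl12 (0.65), Nfkb1 (0.39), Il18 (0.29), Il1b (-1.81) and Ptgs2 (-1.78). Cxcl9 (limma adjusted p = 0.148), Cxcl10 (1.58, limma adjusted p = 0.104), Ccl5 (0.72, limma adjusted p = 0.292), Ccl19, Ccl12, Tnf, Tnfaip3, Casp1, Bcl3, Nfkb2, Tgfb1 and Vcam1 no longer passed. Without the block Cxcl12 differed by 0.21, while its second probe differed by -0.51, the opposite sign. In DKO mice 1 and 2, whose arrays share a slide, the mean differences were 1.75 for Cxcl10, 1.37 for Ccl7, 0.36 for Nfkb1, -1.97 for Il1b and -1.87 for Ptgs2. With the mouse as a block 22 members passed: Tgfb1 no longer did (limma adjusted p = 0.0578), and Icam1 (0.0362) and Il33 (0.0349) did. Without DKO mice 1 and 3, an alternative chosen after seeing the data, 18 members passed.

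Markers of other tissue also differed between the dissected regions. Of 8 choroid plexus markers 7 were lower in basal forebrain, with Ttr at -8.83 on the log2 scale, and their mean lay between -3.39 and -2.10 on basal forebrain arrays, against 0.16 to 1.38 on cortex arrays. Of 10 mural cell and fibroblast markers 4 were higher in basal forebrain (Col1a2 1.25, Dcn 0.80, Lum 0.64, Kcnj8 0.27), and their mean was 0.74 to 1.14 there, against 0.33 to 0.65 in cortex. Of 8 tested T cell and NK cell markers 3 were higher (Cd3g 1.43, Lck 0.89, Nkg7 0.76) and 1 lower (Cd3e -0.78). Of 12 microglia markers 3 were higher and 1 lower, Olfml3 at -1.49. Their part in the region differences was not tested. Receptors split both ways: 3 of 11 chemokine receptors were higher, Cxcr3, the receptor of Cxcl9 and Cxcl10, by 0.76, and 4 lower, Ackr2, a scavenger of CC chemokines, at -1.44. Of 17 cytokine receptors 3 were higher, Il18bp, a soluble trap of Il18, by 1.06, and 4 lower, Ifngr2 at -0.49. The NF-kB signalling list had 5 of 18 higher and 5 lower, and the inflammasome partners 3 of 11 each way.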

How the data were processed

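RNA of 12 tissue samples was measured in 1 colour on Agilent microarrays (SurePrint G3 Mouse GE v2). Per the file headers, the deposited intensity of each spot came from Feature Extraction 10.7.1.1 (protocol GE1_107_Sep09), and probe positions are mm9. The authors' normalized log2 values in the deposited series table, whose sorted values are identical on all 12 arrays, served as an alternative only, and its 12 flag columns were not used. Whole-table raw values equalled the scanner's within 0.01 log2 for 99.9979% of spots.

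From these files, 56568 probes were analysed (37 were dropped because all their spots were outliers on some array). Symbols of 32972 probes came from RefSeq, and 23596 kept the name in the files. Log2 intensity minus the array's 75th percentile was fitted with R 4.3.3 and limma 3.58.1 (lmFit, eBayes with trend=TRUE), on all genes, with p adjusted by Benjamini-Hochberg over all genes. Each gene was read from its probe of highest mean, and entered when 1 or more groups had that probe well above background in all 3 mice. Fits used the 6 arrays of a region, the 6 mice for the mean of both regions, and all 12 arrays in 4 groups for the region difference and interaction. The share of probes well above background was 68.9% or more per array, arrays of a group correlated at r of 0.985 to 0.995 over probes, and 0 spots were saturated. Scripts were tested on simulated data.

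The members and lists were chosen with earlier results of these data known. Every array is given for members that passed with a difference of at least 1 log2 (for the regions, the 5 largest), for the 5 of smallest p in each genotype comparison, and for Nfkb1, Rela, Nfkbia, Tnf and Il1b. Up to 4 genes of a partner or marker list are named by smallest p. In the pairing check, DKO and Con mice of the same number deviated from their group means with r of 0.037, 0.45 and -0.49 in basal forebrain and -0.015, 0.23 and 0.27 in cortex, so those numbers do not pair mice. The 2 regions of a mouse are paired by the sample titles, and their deviations correlated at -0.0074, 0.15, -0.087, 0.21, 0.31 and 0.39. Alternatives were normexp with an offset of 50, quantile normalization, the authors' values, other filters, all probes of a gene, slide, mouse or number as a block, no trend, and samples left out.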

Additional observations from a re-analysis of the deposited data

How the results depend on the processing

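No member passed between DKO and Con basal forebrain in any of 15 alternatives, while the count over all genes (8) was 5 with normexp, 3 with no filter on dim probes, 2 with the filter above background on every array, 0 with the replicate block, 0 without DKO mice 1 and 3, and 0 to 24 when 1 mouse was left out (0 with either DKO mouse 3 or Con mouse 3 removed, 24 with Con mouse 2 removed). In cortex the count of members (0) was 1 on slide 2 alone, 8 without DKO mice 1 and 3, and 0 to 8 with 1 mouse left out, the 8 without DKO mouse 3. Over all genes it was 3, and 1 with no filter, 0 with the mean over all probes, 1 without the trend, 27 on slide 2 alone, 7742 without DKO mice 1 and 3, and 1 to 9759 with 1 mouse left out. In the mean of both regions Bcl3 passed in 0 of 15 alternatives: the count of members was 0 with normexp, quantile normalization, the authors' values, either other filter, all probes, no trend, the replicate block (limma adjusted p = 0.0679) and without DKO mice 1 and 3, and 0 to 2 with 1 mouse left out, the 2 being Icam1 and Il33 without DKO mouse 3. Over all genes 42 passed, and 16 with no filter, 22 with the stricter filter, 14 without the trend, 8 without DKO mice 1 and 3, and 20 to 177 with 1 mouse left out. Between the regions the count of members was 11 with slide as a block (7318 genes), and 17 to 23 in the other 15 alternatives. In the interaction 0 members passed in every alternative, and 0 to 1559 genes with 1 mouse left out, the 1559 without DKO mouse 3. The replicate block, here the mouse, gave 22 members between the regions, and in the genotype comparisons the shared number is not a pairing. The region difference in DKO mice 1 and 2 is given as values and has no test. When DKO mouse 3 was left out, the DKO cortex arrays were all on slide 1 and the Con ones on slide 2. Genotype and slide cannot be told apart in that cortex fit, or in the cortex part of the mean of both regions.

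Signs of values that did not pass turned in several settings. In basal forebrain Cxcl12 was at -0.018 with the mean over its probes, and with 1 mouse left out Nfkb1 ran over -0.0113 to 0.0595 (below 0 with DKO mouse 2, DKO mouse 3 or Con mouse 3 removed), Il1b over -0.88 to 0.13 (above 0 with DKO mouse 2 or Con mouse 3 removed) and Tnf over -0.19 to 0.040 (above 0 with Con mouse 3 removed). In the mean of both regions Il1b was at 0.065 with normexp and ran over -0.32 to 0.18 with 1 mouse left out (above 0 with DKO mouse 2, DKO mouse 3 or Con mouse 3 removed), and Nfkb1 over -0.0006 to 0.054 (below 0 with DKO mouse 2 removed). In cortex Cxcl12 was at -0.29 (limma adjusted p = 0.0206) without DKO mice 1 and 3, against 0.26 with all mice and 0.70 on slide 2, and on slide 2 Il12b, Ccl4, Ccl5, Ccl7, Ccl12, Casp1 and Ptgs2 also had the opposite sign. With normexp the region differences of Ifng (0.11, limma adjusted p = 0.182) and Ccl11 (0.10, limma adjusted p = 0.199) no longer passed. The causes were not tested. With 1 mouse left in a group, that mouse is assumed to vary like the others. Signal limits the dim members: those not above background in a region have a bound there, not a level.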
